A study of Mus musculus with 12 samples.

Results

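The H3K9me3 peaks adjacent to acetylated chromatin are the regions of the H3K9me3 list that shared no base with any of the 6 other peak lists of the series and whose summit lay within 20 kb of a summit of acetylated histone H3 in the same genotype. They numbered 165 of 2388 H3K9me3 peaks (6.91%, exact 95% interval 5.92% to 8.00%). They were chosen by the positions of called peaks, so their number and their nearness to acetylation describe the choice and carry no test. Of the other H3K9me3 peaks, 333 overlapped at least 1 other list and 1890 lay beyond 20 kb of acetylation without touching a list.

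All libraries came from thymocytes (T cells maturing in the thymus) of mice aged 4 to 5 weeks. H3K9me3 was profiled in Zfatf/f mice only, in which both copies of Zfat, the gene of a zinc-finger transcription factor, are flanked by recombination sites. H3K9ac/K27ac (histone H3 acetylated at lysine 9 and lysine 27) was profiled in Zfatf/f mice and in Zfatf/f-LckCre mice, which carry the floxed Zfat together with a Cre recombinase driven by the Lck promoter of the T lineage. ZFAT itself was profiled in Zfatf/f, Zfatf/f-LckCre and B6 (C57BL/6) mice, with the B6 library called once against input and once against IgG. Zfatf/f is called floxed and Zfatf/f-LckCre Lck-Cre from here on. Each of these groups had 1 ChIP library, and how many mice gave its cells is not stated in the sources used here. Peak positions are in mm9. No gene, exon or sequence is given with them, because the files name no gene and no genome of that build was used here.

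Trimethylation of lysine 9 is placed by enzymes such as SETDB1 and the SUV39H proteins, and HP1 proteins bind it in silenced chromatin, where it covers satellite repeats, transposable elements and clusters of zinc-finger genes. Acetylation of lysine 9 and lysine 27 marks active promoters and enhancers. The same lysine 9 cannot be trimethylated and acetylated at once on 1 histone tail, whereas acetylated lysine 27 can share a tail with trimethylated lysine 9. The adjacent peaks are places where a silent mark was called a short way from an active one.

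Windows of 20 kb on either side of the 13016 floxed H3K9ac/K27ac summits covered 330 Mb, 12.8% of the 2573 Mb spanned by the lists. Counting every H3K9me3 peak, overlapping ones included, these windows held 287 peaks, or 0.869 per Mb, against 0.937 per Mb beyond (2101 peaks). Within 1 kb of a summit the density of all H3K9me3 peaks was the highest of any distance class, at 4.73 per Mb (112 peaks), and 105 of these 112 overlapped another list. From 1 to 5 kb it was the lowest, at 0.375 per Mb (30 peaks), and beyond 100 kb it was 1.001 per Mb (1685 peaks).

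The rule removes the overlapping peaks, 122 of the 287 within 20 kb and 211 of the 2101 beyond, so the density of what remains is a description of the choice. Pooled over all chromosomes, the 165 adjacent peaks came to 0.500 per Mb of the windows (Poisson 95% interval 0.427 to 0.582). The 1890 beyond came to 0.843 per Mb (0.805 to 0.882), a pooled ratio of 0.593. By distance, the adjacent peaks came to 0.296 per Mb within 1 kb (7 peaks, 0.119 to 0.609) and 0.350 from 1 to 5 kb (28 peaks, 0.232 to 0.506). From 5 to 20 kb they came to 0.574 per Mb (130 peaks, 0.480 to 0.682), beside 0.598 for the non-overlapping peaks from 20 to 50 kb (170 peaks, 0.512 to 0.695). Within 1 kb the value is set mainly by the removal of overlapping peaks, while from 1 to 5 kb the rule removed 2 of 30. These intervals and all others below cover counting error only, since 1 library per group gives no spread between libraries. PCR reads without molecular identifiers are also not independent molecules. Regions that reads cannot be aligned to are part of the span, and their share was not measured.

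ZFAT peaks are given for comparison over the same windows. All floxed ZFAT peaks came to 2.07 per Mb within 20 kb of acetylation and 0.462 beyond, and all B6 ZFAT peaks called against input to 2.21 and 0.566. With the overlapping peaks removed as for H3K9me3, floxed ZFAT came to 0.660 per Mb near (218 peaks, 0.576 to 0.754) and 0.413 beyond (926 peaks, 0.387 to 0.440), and B6 ZFAT to 0.836 and 0.424. As a share of each list's peaks that touch no other list, 8.03% of H3K9me3 peaks lay within 20 kb (165 of 2055), against 19.1% of floxed ZFAT peaks (218 of 1144) and 22.5% of B6 ZFAT peaks called against input (276 of 1227). The libraries differed in depth, with about 2230000 fragments inferred for H3K9me3, 1510000 for floxed ZFAT and 632000 for B6 ZFAT.

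**Figure D1:**
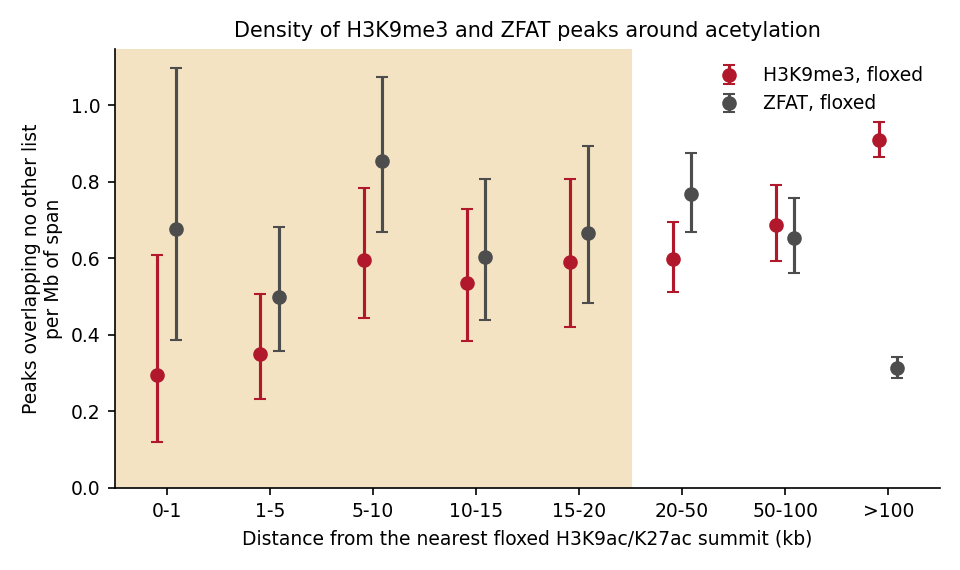
Peaks per Mb that overlap no other list, by distance from the nearest floxed H3K9ac/K27ac summit in kb, for H3K9me3 and ZFAT in floxed thymocytes, with Poisson 95% intervals; the shaded classes hold the 165 adjacent H3K9me3 peaks. The H3K9me3 values are 0.296 within 1 kb and 0.910 beyond 100 kb; with overlapping peaks, which are not drawn, they are 4.73 and 1.001.

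Within their 20 kb limit the adjacent peaks were spread widely. The distance to the nearest acetylation summit had a median of 9531 bp (95% interval of the median 8421 to 11237), with quartiles at 5527 and 14626 bp and extremes of 383 and 19745 bp. The nearest summit lay at the lower coordinate for 82 peaks and at the higher for 83. A single acetylation summit stood within 20 kb of 106 peaks (64.2%, 56.4% to 71.5%), 2 summits of 31 peaks, and 3 or more of 28 peaks. Acetylation lay on both sides of 26 peaks (15.8%, 10.6% to 22.2%), where the 2 flanking summits were 21458 bp apart in the median and between 2920 and 35648 bp at the extremes. This share moves with the limit, and was 5.81% at a limit of 10 kb and 28.7% at 50 kb.

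**Figure D2:**
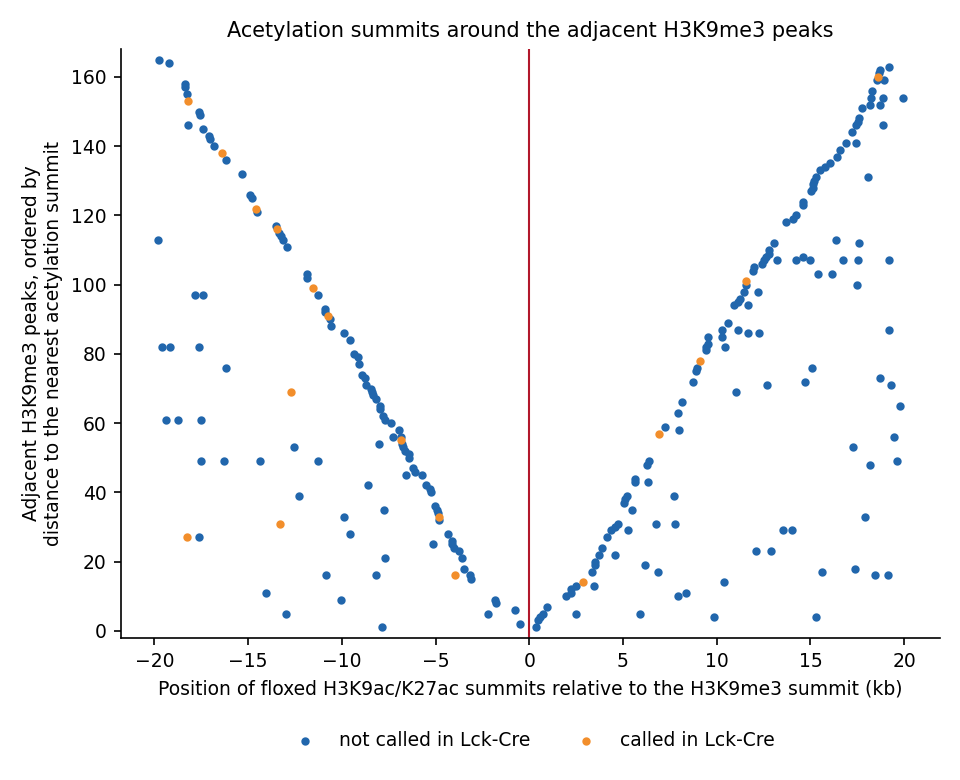
Floxed H3K9ac/K27ac summits around each of the 165 adjacent H3K9me3 peaks, with the H3K9me3 summit at 0 and 1 row per peak, ordered by distance to the nearest acetylation summit; colours show whether the acetylation peak was also called in Lck-Cre. The nearest summits fall on both sides alike (82 and 83), 7 lie within 1 kb, and 17 of the 257 acetylation peaks shown carry the colour for Lck-Cre.

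The adjacent peaks were weak by the caller's scores. The P score of a peak is the −log10 of the caller's p, and the fold is the ratio the authors' caller gave for the ChIP over its local control. The P score of the adjacent peaks had a median of 8.51 (95% interval of the median 8.12 to 9.07) and a highest value of 17.97. Peaks beyond 20 kb had a median of 10.2 (9.83 to 10.4) and reached 216. A P score of 10 or more was found in 57 adjacent peaks (34.5%, 27.3% to 42.3%), against 49.7% of all H3K9me3 peaks and 50.8% of those beyond (961 of 1890). No adjacent peak reached 20 (0 of 165, which allows a share of up to 1.82%), while 3.77% of all H3K9me3 peaks and 68 of the 1890 beyond (3.60%) did. Among peaks that touch no other list, the adjacent share was lower at higher scores, from 12.4% of those with a P score under 7 (40 of 322) and 9.51% from 7 to 10 (68 of 715) to 6.63% from 10 to 15 (49 of 739) and 2.87% at 15 or more (8 of 279).

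Taken over all peaks of each set, the fold hardly differed. In the form solved here, the fold has 1 added to both the fragments and the background. This lowers it most where the background is low, so a like fold need not mean a like ratio without the added 1. It had a median of 5.60 in adjacent peaks (5.36 to 5.78) and 5.67 in peaks beyond (5.54 to 5.73), and a fold of 5 or more was found in 109 adjacent peaks (66.1%), against 67.2% of all H3K9me3 peaks. The difference in P score went with the number of fragments. The pileup, the whole number of ChIP fragments at the summit that the deposited fold and P score together imply, had a median of 10 in adjacent peaks (9 to 11) and 15 in peaks beyond (14 to 15). Of the adjacent peaks, 88 (53.3%, 45.4% to 61.1%) rested on 10 or fewer fragments, against 35.1% of all H3K9me3 peaks. The control background at the peak, in scaled fragments, had a median of 0.590 (0.571 to 0.856) against 1.43 beyond. The highest background of an adjacent peak was 14.8.

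The contrast in P score was then read within classes of control background. At a background under 0.5 the median P score was 8.95 in 60 adjacent peaks (7.62 to 10.4) and 8.997 in 467 peaks beyond, and the median pileup was 7 in both. From 0.5 to 1 the medians were 8.06 (42 peaks, 7.98 to 10.5) and 9.83 (320 peaks, 9.22 to 10.5), and from 1 to 2 they were 9.31 (21 peaks, 7.45 to 11.3) and 10.6 (357 peaks, 10.3 to 11.4). From 2 to 5 they were 8.43 (34 peaks, 7.20 to 9.61) and 10.6 (558 peaks, 10.4 to 11.2), with median pileups of 18 and 21. The adjacent peaks thus scored alike where the control was lowest, and only from 2 to 5 did the intervals of these 4 classes stay apart. Only 8 adjacent peaks had a background of 5 or more, with a median P score of 7.73 (5.11 to 12.2) against 9.09 (8.48 to 9.997) in 187 beyond. The median fold under 0.5 was 5.94 in adjacent peaks and 5.95 in peaks beyond. From 0.5 to 1 it was 5.74 and 6.47, and from 1 to 2 it was 5.60 and 6.18. From 2 to 5 it was 4.40 and 5.03, and at 5 or more 3.15 and 3.68. The fold was thus lower in adjacent peaks in each class above the lowest, without intervals computed for these medians.

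Adjacent peaks were also short. Their length had a median of 164 bp (162 to 168), near the 150 bp fragment length used by the caller, against 172 bp (170 to 173) beyond. A length of 200 bp or more was reached by 18 (10.9%, 6.59% to 16.7%), against 26.0% of all H3K9me3 peaks and 26.9% of those beyond (508 of 1890). Length also went with control background. At a background under 0.5 the median length was 164 bp in adjacent peaks and 166 bp beyond. At 5 or more it was 208.5 and 237 bp. It was lower in adjacent peaks in each class, without intervals computed. Distance from acetylation and strength showed little relation within the set: Spearman's rho of distance and P score was -0.02 over the 165 peaks, which share 1 library. The 7 peaks within 1 kb had a median P score of 10.2, and the other distance classes had medians between 8.34 and 8.65.

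**Figure D3:**
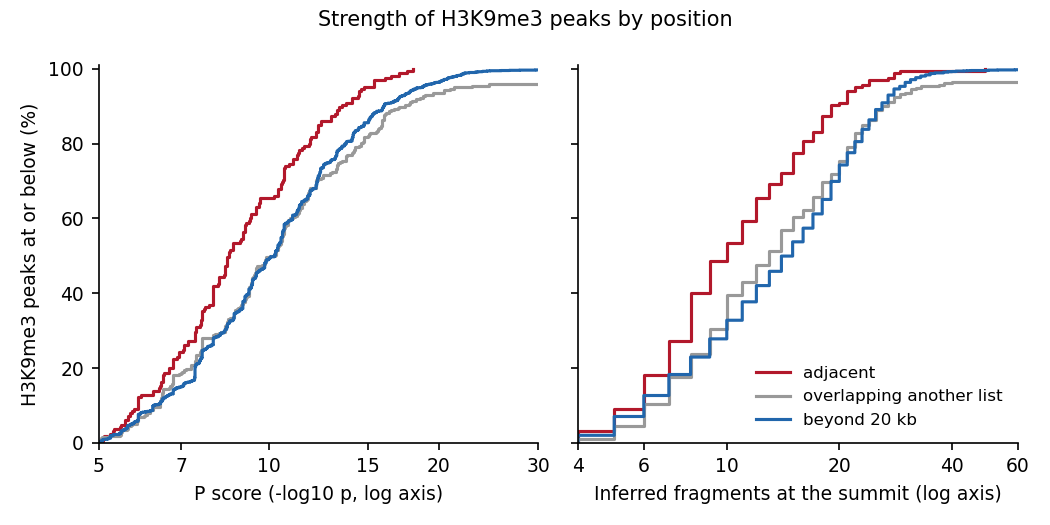
Cumulative share of H3K9me3 peaks by P score (left) and by inferred fragments at the summit (right), on log axes, for the 165 adjacent, 333 overlapping and 1890 distant peaks; peaks past 30 or 60 lie outside the axes. The adjacent curve lies to the left in both panels, with medians of 8.51 and 10 against 10.2 and 15 beyond 20 kb.

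The 6 strongest adjacent peaks by P score show what single regions looked like. The strongest, chr5:122323888-122324267, had a P score of 17.97, a fold of 7.29 and a pileup of 27 (Poisson 95% interval 17.8 to 39.3). Its nearest acetylation peak, 6633 bp away, was among the weakest of its list, with a P score of 5.80 and 11 fragments. The next, chr15:84803313-84803502, had a fold of 10.4 on 13 fragments (6.92 to 22.2) and lay 14626 bp from an acetylation peak of 29 fragments. At chr19:18781719-18781911 the fold was 10.1 on 12 fragments (6.20 to 20.96), with acetylation of 38 fragments at 5648 bp. These 2 were the only adjacent peaks with a fold of 10 or more.

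The remaining 3 of the 6 had 1 acetylation neighbour each, between 11137 and 16153 bp away. The peak chr15:99466691-99466846 had a fold of 8.87 on 18 fragments and lay 15128 bp from acetylation of 56 fragments. The peak chr16:96201152-96201341 had a fold of 9.16 on 16 fragments at 11137 bp from acetylation of 73 fragments. The peak chr15:82016564-82016739 had a fold of 9.34 on 11 fragments at 16153 bp from acetylation of 19 fragments. None of the acetylation peaks nearest to these 6 was called in Lck-Cre, and 3 of the 6 lay on chromosome 15.

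The 4 adjacent peaks nearest to acetylation had weak nearest neighbours. The closest pair was chr10:76729975-76730128, with 5 H3K9me3 fragments (1.62 to 11.7) and a fold of 4.42, whose summit was 383 bp from that of an acetylation peak with 7 fragments at chr10:76730446-76730607. It was followed by chr11:99847663-99847827 at 480 bp (12 H3K9me3 fragments, 7 acetylation fragments) and chr3:117024911-117025086 at 484 bp (11 and 6 fragments). Another H3K9me3 peak, with its summit 441 bp from that of the chromosome 3 peak, overlapped the same acetylation peak. The fourth, chr15:78803673-78803827, was 600 bp from acetylation of 17 fragments. All floxed H3K9ac/K27ac peaks had a median of 38 fragments, above the nearest acetylation peak of each of these 4. Farther acetylation peaks beside them were stronger, with 68 fragments at 7862 bp from the chromosome 10 peak and 60 fragments at 9838 bp from the chromosome 15 peak. Over the set, the nearest acetylation peak had a median P score of 9.06 for the 7 adjacent peaks within 1 kb. The median was 13.2 for the 28 from 1 to 5 kb and 28.5 from 5 to 10 kb. From 10 to 15 kb it was 22.5 and from 15 to 20 kb 25.5, against 25.9 for all floxed acetylation peaks. No intervals were computed for the medians of these distance classes. The rule bears on these values, since H3K9me3 peaks that touch an acetylation peak, as 105 of 112 within 1 kb touched another list, are left out, and a wide acetylation peak is more easily touched.

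The 2 peaks just inside the 20 kb limit were chr16:91830514-91830895 at 19745 bp (P score 5.32, fold 3.20) and chr3:146086830-146086988 at 19188 bp (P score 14.4, fold 8.92). The 2 just outside it were chr6:147403877-147404031 at 20564 bp (P score 9.51, fold 6.07) and chr1:113781903-113782057 at 20617 bp (P score 8.64, fold 4.77). Both scores of the outside pair lay between those of the inside pair.

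The acetylation peaks nearest to the adjacent peaks were narrower than the whole list, and their median strength did not stand apart from it. The 165 adjacent peaks had 159 different nearest acetylation peaks, whose median length was 218 bp (197 to 262) against 290 bp (285 to 296) for all 13016. Their median pileup was 32 fragments (26 to 39) against 38 (37 to 38), and their median P score 22.8 (16.0 to 28.5) against 25.9, both intervals holding the value of the whole list. A P score of 10 or more was found in 131 of the 159 (82.39%, 75.56% to 87.97%). The 88.03% of all floxed acetylation peaks lay just above that interval. For the 257 acetylation peaks within 20 kb of an adjacent peak, the median pileup was 30 fragments (26 to 35), below that of the whole list. Of the 159, 85 (53.5%, 45.4% to 61.4%) had no other acetylation summit within 20 kb, against 41.8% of all floxed acetylation peaks (5441 of 13016). Among all 257 acetylation peaks within 20 kb of an adjacent peak the order was the opposite, with 89 (34.6%, 28.8% to 40.8%) lacking another summit. A length of 500 bp or more was found in 24 (15.1%, 9.92% to 21.6%) against 22.1%. A floxed ZFAT peak overlapped 5 of the 159 (3.14%, 1.03% to 7.19%), a share near the 3.43% of all floxed acetylation peaks.

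Some adjacent peaks stood beside dense acetylation. The largest number of summits within 20 kb was 7, beside chr15:76011691-76011990, a peak with a P score of 7.04, a fold of 3.15 and 24 fragments (15.4 to 35.7). All 7 lay at higher coordinates, from 12542 to 19207 bp away, with folds between 5.92 and 25.1. At chr7:4983512-4983693 (P score 14.4, fold 5.49, 28 fragments) there were 6 summits, 4 below and 2 above; the nearest, 6377 bp away at chr7:4989827-4990118, had a fold of 55.5 and a P score of 160. At chr17:34096186-34096349 (P score 11.2, fold 5.79, 18 fragments) there were also 6, the nearest at 3175 bp. Of these 19 acetylation peaks 1 was called in Lck-Cre, at chr17:34092217-34092551.

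Few of the acetylation peaks near the adjacent peaks were called in Lck-Cre thymocytes, as was true of the whole floxed acetylation list. Within 20 kb of the adjacent peaks lay 257 floxed acetylation peaks, of which 17 (6.61%, 3.90% to 10.4%) were overlapped by an Lck-Cre acetylation peak, against 12.3% of all floxed acetylation peaks (1600 of 13016), which lies above that interval. For 148 of the 165 adjacent peaks no floxed acetylation peak within 20 kb was overlapped by an Lck-Cre one. Most floxed acetylation peaks anywhere lacked an Lck-Cre call, and this count was not made around other H3K9me3 peaks. A summit of the Lck-Cre acetylation list itself lay within 20 kb of 20 adjacent peaks (12.1%, 7.56% to 18.1%), against 3.43% of all H3K9me3 peaks. The rule bears on this order, since adjacent peaks lie near floxed acetylation. The Lck-Cre call depends on the strength of the acetylation peak, and the 257 had a median P score of 22.1 (16.5 to 25.8) against 25.9 (25.2 to 26.4). Within classes of P score the shares were lower near the adjacent peaks, but each interval held the value of the whole list. Under 10, 0 of 47 peaks were called (up to 6.38%) against 28 of 1558 in all. From 10 to 25 it was 1 of 94 (1.06%, 0.0269% to 5.79%) against 3.23%. From 25 to 50 it was 7 of 81 (8.64%, 3.55% to 17.0%) against 11.5%. At 50 or more it was 9 of 35 (25.7%, 12.5% to 43.3%) against 34.9%. With 1 library per genotype this compares the libraries, which differed in inferred depth (about 2190000 fragments in floxed and 1340000 in Lck-Cre).

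**Figure D4:**
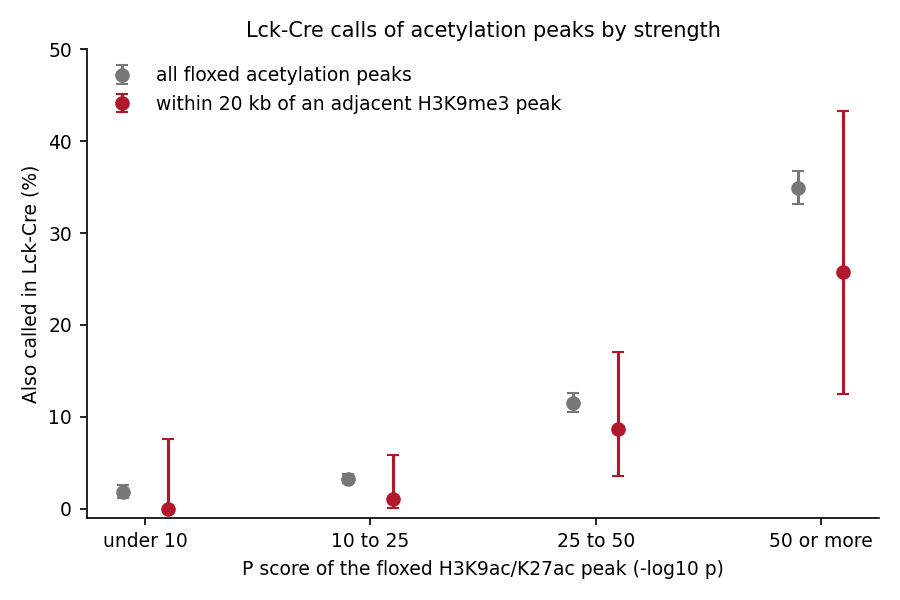
Percent of floxed H3K9ac/K27ac peaks also called in the Lck-Cre library, by the P score of the floxed peak, for all 13016 peaks and for the 257 within 20 kb of an adjacent H3K9me3 peak, with exact 95% intervals. The share rises with strength in both sets, to 34.9% of all peaks and 25.7% of the 257 at a P score of 50 or more.

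Of the 159 nearest acetylation peaks alone, 13 were called in Lck-Cre (8.18%, 4.43% to 13.6%), an interval that holds the 12.3% of the whole list. The 3 adjacent peaks beside such a neighbour with the most H3K9me3 fragments were chr11:3084143-3084520 (49 fragments, 36.3 to 64.8), chr7:20054893-20055066 (29 fragments, 19.4 to 41.6) and chr8:98349362-98349513 (18 fragments, 10.7 to 28.4). Their acetylation neighbours had folds of 9.45, 7.55 and 17.4 in floxed and 3.56, 6.68 and 4.30 in Lck-Cre thymocytes, on 66, 73 and 99 and on 18, 25 and 24 fragments. The fragment number was lower in Lck-Cre at all 3, without scaling to depth. The chromosome 11 region had the highest control background of the set, 14.8 scaled fragments, and a fold of only 3.16. Next to 3 adjacent peaks the Lck-Cre list held an acetylation peak that overlapped no floxed one.

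ZFAT lay close to a minority of the adjacent peaks. A floxed ZFAT summit lay within 20 kb of 13 adjacent peaks (7.88%, 4.26% to 13.1%), against 6.62% of all H3K9me3 peaks and 3.23% of those beyond 20 kb of acetylation (61 of 1890). The value for all H3K9me3 peaks, which includes those that a ZFAT peak overlaps, lies inside the interval of the adjacent peaks, and the value beyond lies under it. A B6 ZFAT summit called against input lay within 20 kb of 27 (16.4%, 11.1% to 22.9%), against 12.0% of all H3K9me3 peaks and 5.08% of those beyond (96 of 1890), with the same order. Adjacent peaks lay by their rule in the part of the genome where ZFAT peaks were also denser. A summit of both libraries lay within 20 kb of 3 (1.82%, 0.377% to 5.22%). That share was 1.21% of all H3K9me3 peaks and 0.370% of those beyond (7 of 1890). The Lck-Cre ZFAT list, which held 108 peaks, had a summit there for 0 (up to 1.82%), against 0.586% of all. The latter includes 8 peaks that an Lck-Cre ZFAT peak overlapped, which the rule leaves out. Of the peaks beyond, 5 of 1890 had such a summit (0.265%).

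The 13 floxed ZFAT peaks were 794 to 15868 bp from the H3K9me3 summit, with a median of 7957 bp, and 5 of them sat on floxed acetylation, as did 25.8% of all floxed ZFAT peaks (443 of 1719). The nearest pairs were chr19:25685541-25685739 at 794 bp (H3K9me3 fold 3.22, ZFAT fold 4.41 on 7 fragments), chr15:89120064-89120223 at 1081 bp (folds 5.91 and 3.41, 14 ZFAT fragments) and chr11:120561257-120561414 at 2703 bp (folds 6.41 and 5.16, 6 ZFAT fragments). None of these 3 ZFAT peaks overlapped acetylation. The strongest ZFAT peak by P score among the 13, at chr11:3093125-3093518, had a P score of 54.7 but a fold of 2.53 on 372 fragments, and stood 8965 bp from the chromosome 11 region of high control background named above.

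Most adjacent peaks stood alone, as did most of the whole H3K9me3 list. Another H3K9me3 summit lay within 20 kb of 22 (13.3%, 8.55% to 19.5%), against 11.3% of all H3K9me3 peaks. For 12 of the 22 it was another adjacent peak, for 9 a peak that overlapped another list and for 1 a peak beyond 20 kb of acetylation. When H3K9me3 peaks were joined at gaps of up to 20 kb, the 165 fell into 158 runs, of which 143 were a single peak, and no run held more than 2 adjacent peaks. At chr11:16339023-16353038 a run of 3 H3K9me3 peaks had 2 adjacent ones, with 6 and 12 fragments, around another that overlapped a second list, 37 bp from an acetylation summit. The run chr5:122323888-122334242 joined the strongest adjacent peak to one of 8 fragments 10187 bp away. The run chr13:65360454-65361301 held 2 adjacent peaks 721 bp apart, with 22 and 19 fragments and folds of 6.45 and 2.86. The lists hold narrow peaks only, and broad H3K9me3 domains were not analysed here.

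Adjacent peaks were unevenly spread over the chromosomes. Their share of a chromosome's H3K9me3 peaks was highest on chromosome 11 (22 of 119, 18.5%, 12.0% to 26.6%), followed by chromosome 17 (17 of 110, 15.5%, 9.27% to 23.6%), chromosome 15 (14 of 108, 13.0%, 7.27% to 20.8%) and chromosome 16 (8 of 63, 12.7%, 5.65% to 23.5%). There was none on chromosome 18 (0 of 84, up to 3.57%) and none on the X chromosome (0 of 65, up to 4.62%). The rule ties this share to acetylation, since more acetylation on a chromosome leaves more sequence within 20 kb. Counted per Mb of sequence within 20 kb of acetylation, adjacent peaks were most frequent on chromosome 17 (1.06 per Mb), chromosome 15 (0.976) and chromosome 11 (0.814), against 0.500 over all chromosomes. Chromosomes 14 and 9 had 0.178 and 0.222 per Mb on 2 and 4 peaks. The pooled density of the peaks beyond 20 kb was 0.843 per Mb, which only the values of chromosomes 17 and 15 exceeded. A density beyond 20 kb was not computed for single chromosomes. Whether the pooled ratio of near to far holds on each chromosome was therefore not tested. The chromosomes named here were picked after their values were seen.

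**Figure D5:**
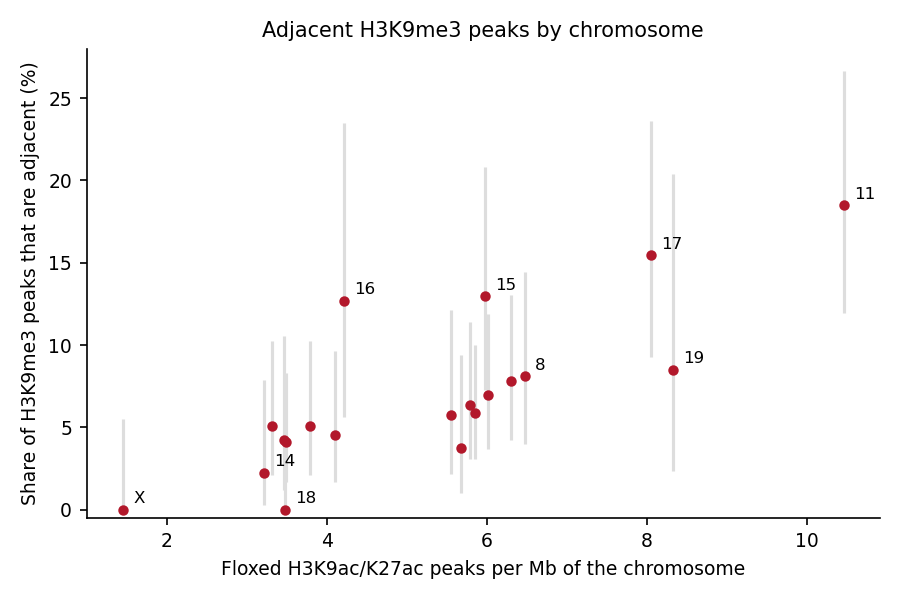
Share of each chromosome's H3K9me3 peaks that are adjacent to acetylation (exact 95% interval in grey) against the number of floxed H3K9ac/K27ac peaks per Mb, for 20 chromosomes. Chromosome 11, with 10.5 acetylation peaks per Mb, has the highest share at 18.5%, and chromosomes 18 and X have 0%; the rule ties the share to the horizontal axis.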

How the data were processed

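The 7 deposited peak lists, from 6 ChIP libraries, were used; the 6 control samples were not analysed here. The submitters' processing notes name CASAVA 1.8.1, Trimmomatic 0.22, SAMtools 0.1.18, the build mm9 and, for B6, MACS; no aligner is named. Chromatin was fixed with 1% formaldehyde (10 min), cut with micrococcal nuclease (375 units, 0.5 h) and sonicated, per the labels' protocols. Per the file headers, peaks were called per library with a fragment length of 150 bp, a p cutoff of 1e-05 and a local background; the floxed and Lck-Cre headers name no control. In the deposited lists the P score and Q score are the −log10 p-value and q-value, and the deposited fold change is a ratio made by the authors' caller. The Q score was not used.

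Overlap meant at least 1 shared bp. Shares have exact Clopper-Pearson 95% intervals, densities and pileups exact Poisson intervals and medians order-statistic intervals. A count of 0 is given in the text with the share that 3 counts would make. The exact upper limit, which the figures draw, is higher, at 2.21% for 0 of 165. Pileup k and background b solve fold = (k + 1)/(b + 1) with p the Poisson tail above k, to a tolerance of 0.0001 on the P score. Of 2388 H3K9me3 peaks, 2384 had 1 solution, 3 were at the score's ceiling and 1 had either no solution or more than 1. Inferred depth takes the lowest background as fragments spread evenly over the genome. As a check of the solver only, fold and P score were rebuilt from the inferred pileups and backgrounds and solved again. Such a check cannot show that the inferred pileups are the true fragment counts. Python 3.11.15 with pandas 2.3.3 and SciPy 1.17.1 was used. With 1 library per group no test was run between groups.

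Named regions followed a rule: the 6 highest P scores; the 4 nearest to acetylation; the 3 with the most acetylation summits; the 3 with the most fragments whose nearest acetylation peak was called in Lck-Cre; the 3 nearest to floxed ZFAT; the 3 longest (lengths 378 to 382 bp, all named under other parts of the rule); the 3 runs with the most adjacent peaks; and the 2 on either side of the limit. The regions and rules were chosen with earlier results of these data known. Genes and sequence were not analysed here because the reference tables are of another build.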

Additional observations from a re-analysis of the deposited data

How the results depend on the processing

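The 12 results were recomputed under 10 other settings; of the contrasts with other peaks, only the density ratio of peaks that overlap no other list was among them. A minimum H3K9me3 P score of 10 left 57 adjacent peaks, with a median P score of 12.1, and the ratio of the density near acetylation to that beyond went from 0.593 to 0.403. A minimum fold of 5 left 109, with a median P score of 10.2; both thresholds act on the scores themselves. A distance limit of 10 kb gave 86 adjacent peaks at a median distance of 5657 bp, and one of 50 kb gave 335 at 20698 bp. The share with a B6 ZFAT summit within 20 kb was 24.6% at the minimum P score of 10 (14.1% to 37.8%), an interval that holds the 16.4% of the main setting. The share with a floxed ZFAT summit was 7.02% there, against 7.88%. The same shares of all H3K9me3 peaks at that minimum were not computed. The share with acetylation on both sides was 5.81% at 10 kb and 28.7% at 50 kb, against 15.8%. Over the 10 settings, the density ratio, pooled over all chromosomes, lay between 0.403 and 0.621. No paired analysis was possible because each ChIP group has 1 library, and for the same reason no replicate could be left out. At about 2230000 inferred H3K9me3 fragments the adjacent peaks had a median of 10 fragments each and a lowest value of 4. Whether weaker H3K9me3 near acetylation was missed at this depth was not tested.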
